A study of Mus musculus with 12 samples.

Results

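The mouse microRNAs (miRNAs) miR-221 and miR-222 are made from neighbouring hairpins on the X chromosome, and each hairpin has a second, rarer product, miR-221* and miR-222*. These 4 rows were taken by name from a miRNA count table of 495 named rows. The cluster was chosen by measured values: the counts of miR-221 had come out lower in the cKO than in the Control libraries in earlier work on the same tables. Its cKO and Control levels are therefore given as a description, with no test.

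The libraries hold small RNA of hippocampal CA1 tissue, dissected out of C57BL/6J mice aged 3 to 5 months. The cKO mice had both Kat2a alleles floxed (Kat2a fl/fl) and carried CamKIIα-cre, a transgene whose promoter is active in excitatory neurons of the forebrain, so other cells of the tissue keep Kat2a (n = 6). Control mice had the same Kat2a fl/fl alleles with no Cre named in their labels (n = 6). Kat2a encodes an enzyme that acetylates histones. The labels do not say whether a library held 1 mouse or several, so the spread between libraries may be partly technical. The tissue is a mixture of cells, and fewer cells of a type cannot be told apart from less RNA per cell.

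The miRNA table held 2449121 to 10116062 reads per cKO library and 2876910 to 8137046 reads per Control library. Levels are given as CPM, a row's reads relative to the total of its library, with that total scaled by the trimmed mean of M-values (TMM). Neuronal miRNAs were abundant, which fits the tissue label: miR-9 averaged 31546 ± 5161 CPM and miR-128 averaged 21496 ± 3902 CPM in cKO libraries (SD, n = 6). These are the most abundant of 11 rows on the neuronal list. For miR-124, named here for this limit, the list held the star row alone, at 50.2 ± 4.28 CPM in cKO libraries. In a second table, of all RNAs, Kat2a had 13 reads over the cKO libraries and 23 over the Control libraries, and its relative Kat2b had 15 and 7, too few for a check of the deletion.

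A miRNA hairpin is cut out of a longer transcript by Drosha in the nucleus and trimmed to a short duplex by Dicer in the cytoplasm. A strand of that duplex, the guide, is kept by an Argonaute protein and pairs through its seed with sites mostly in the 3′ untranslated regions (3′ UTRs) of mRNAs, which are then repressed, while the other strand, the star or passenger, is mostly lost. The miR-221 and miR-222 pair is best known for repressing the cell cycle inhibitor Cdkn1b (p27Kip1) and the receptor Kit, and it is abundant in cells of the vessel wall.

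The guides of both members and the star strand of miR-221 are shown because the seed decides which targets the pair shares. They come from RefSeq on assembly GRCm38.p6, 5′ to 3′, with bases 2 to 8 (the seed) in capitals.
mmu-miR-221-3p (miR-221): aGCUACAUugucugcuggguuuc
mmu-miR-222-3p (miR-222): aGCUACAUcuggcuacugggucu
mmu-miR-221-5p (miR-221*): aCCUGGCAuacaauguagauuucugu
The guides lie at chrX:19146307-19146329 for miR-221 and chrX:19146901-19146923 for miR-222, and the star of miR-221 lies at chrX:19146344-19146369, all on the minus strand. Both guides are 23 bases long. They share their first 8 bases and carry the same base at 11 of 23 positions counted from the 5′ end. The seed GCUACAU stood in 3 of 1679 mature mouse sequences of the reference. The third was miR-1928, a sequence of 17 bases that is not among the rows used here, so within the table the seed was matched by name to this pair. miR-222* is named only.

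The hairpins are shown because reads of the table of all RNAs were counted on them. Capitals mark the guide, which is the 3′ arm of each.
Mir221: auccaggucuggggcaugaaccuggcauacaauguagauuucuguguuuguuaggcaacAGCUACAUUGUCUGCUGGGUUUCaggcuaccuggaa
Mir222: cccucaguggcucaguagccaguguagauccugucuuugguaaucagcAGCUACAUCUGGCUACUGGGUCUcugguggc
Mir221 spans chrX:19146294-19146388 and Mir222 spans chrX:19146893-19146971 of GRCm38.p6, on the minus strand, with 504 bases between them. Mir222 is the upstream hairpin in the direction of transcription. The Mir221 hairpin is 95 bases long with 47.4% G and C, and the Mir222 hairpin is 79 bases long with 54.4%. In GENCODE M21 neither lies in an exon or intron of another annotated gene. The nearest gene is Gm14636, a processed transcript on the same strand that ends 10010 bases away at chrX:19156981-19167241.

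In the miRNA table miR-222 was the more abundant guide, an order that is opposite for the hairpin rows of the table of all RNAs (Mir221 over Mir222 by 3.21 to 5.16). Over all 12 libraries it ranked 56 of 494 tested miRNAs by mean CPM, and miR-221 ranked 64. Together the guides made up 0.394 ± 0.055% of miRNA reads in cKO libraries and 0.484 ± 0.038% in Control libraries (SD, n = 6 each). The star arms were far rarer, with ranks of 211 for miR-221* and 312 for miR-222*. The order miR-222, miR-221, miR-221*, miR-222* held in every library.

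**Figure D1:**
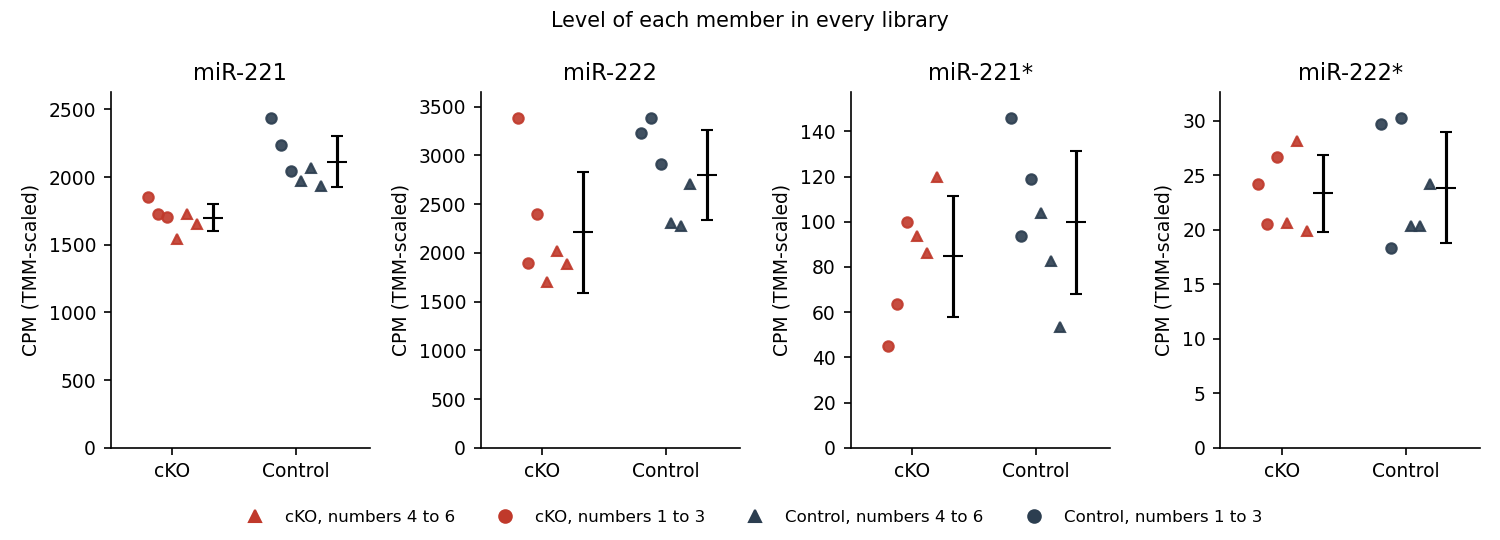
Level of each of the 4 members in TMM-scaled CPM (linear axes from 0), 1 point per library, cKO left of Control, with bars for mean ± SD (n = 6); triangles are libraries numbered 4 to 6 and circles those numbered 1 to 3. The miR-221 points of cKO end at 1851 CPM, under the lowest Control point at 1931 CPM, while the groups overlap for the other members.

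miR-221 had 1542 CPM in the lowest cKO library, a median of 1714 CPM and 1851 CPM in the highest, against 1931, 2056 and 2434 CPM in Control libraries. The lowest library was cKO 4 and the highest Control 1, and the groups did not overlap. The means were 1700.3 ± 102 CPM in cKO and 2114 ± 189 CPM in Control libraries (SD, n = 6 each). The fit over all miRNAs gave a log2 fold change of -0.31 (SE 0.11), and 6 of 6 cKO libraries lay under the Control mean, as they did for 2.23% of tested miRNAs. The groups also stayed apart with another set of size factors (RLE; cKO at most 1804 CPM, Control at least 1989) and with the miRNA total as the only scale (at most 1817 and at least 1942). With the joint total of the miRNA table and the table of other small RNAs as the scale, cKO libraries reached at most 1112 CPM and Control libraries began at 1196 CPM. These scalings use the same counts in the contrast that picked the cluster, so they are no separate support. With TMM scaling, 1 of 494 tested miRNAs (0.202%) was separated in the downward direction, and that 1 is miR-221 itself.

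miR-222 had 1696 CPM in the lowest cKO library, a median of 1954 CPM and 3378 CPM in the highest, against 2274, 2808 and 3378 CPM in Control libraries. The groups overlapped in more than 1 library. cKO 1 reached the level of the highest Control library, Control 2. cKO 3, at 2398 CPM, lay above Control 4 and Control 5, at 2303 and 2274 CPM. Apart from cKO 1, the cKO libraries lay at or under 2398 CPM, below the Control mean. The means were 2210 ± 618 CPM in cKO and 2800.0 ± 461 CPM in Control libraries, a log2 fold change of -0.34 (SE 0.18). The fitted sizes of the guides thus lay within each other's standard errors.

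The star arms overlapped widely between the groups. miR-221* had 44.9 CPM in the lowest cKO library, a median of 89.9 and 119.7 in the highest, against 53.5, 98.7 and 145.7 CPM in Control libraries, a log2 fold change of -0.23 (SE 0.25). cKO 1, which was level with Control 2 at the most miR-222, had the least miR-221*. This value rests on 104 reads, in the library with the fewest miRNA reads (2449121). miR-222* had 19.9, 22.4 and 28.2 CPM in cKO libraries, against 18.3, 22.3 and 30.2 CPM in Control libraries, a log2 fold change of -0.03 (SE 0.17) whose sign turned with the miRNA total as the scale (0.0067). These levels rest on 104 to 1138 reads for miR-221* and on 50 to 300 reads for miR-222*, and on 4286 to 18382 reads for miR-221.

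Over the whole table, edgeR's quasi-likelihood test with Benjamini-Hochberg adjustment called 1 of 494 miRNAs (0.202%) between cKO and Control at a threshold of 0.05, miR-203, named here after its values were seen, and 21 had an unadjusted p under it. DESeq2 called 2 (0.405%). These counts are background over all tested miRNAs, the members included. Nothing is read from them about the members, since this contrast picked the cluster. The median log2 fold change over all 494 was 0.00 at 2 decimals. The standard errors above are descriptive.

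**Figure D2:**
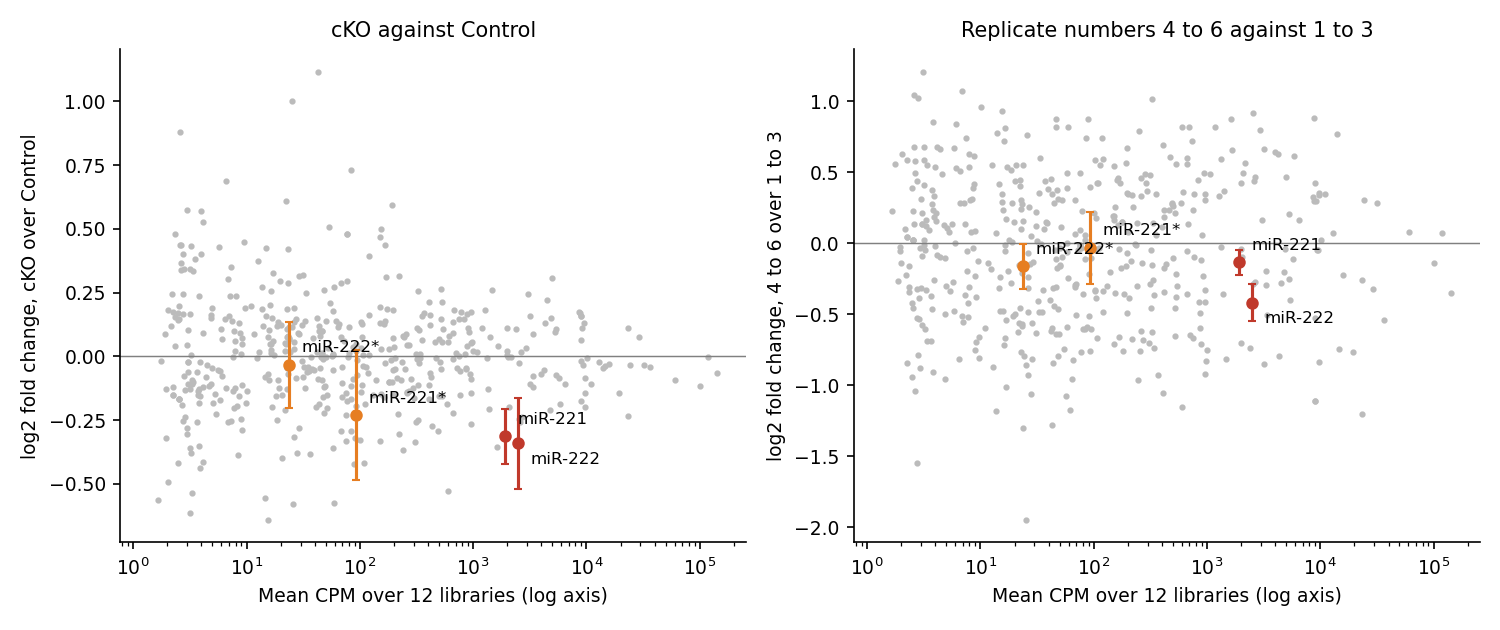
log2 fold change against mean CPM (log axis) for the 494 tested miRNAs in grey, with miR-221 and miR-222 in red and their star arms in orange (bars, SE); cKO over Control on the left, libraries numbered 4 to 6 over those numbered 1 to 3 on the right. Between cKO and Control both guides lie at about -0.3, while between the sets of numbers miR-222 lies at -0.42 and miR-221 at -0.14.

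miR-221 was the steadier guide, as a description. A small spread within groups is part of what keeps groups from overlapping, so it is no trait apart from the contrast that picked the cluster. The SD of miR-221 within groups was 0.11 on the log2 scale, against 0.31 for miR-222. Among the 20 miRNAs nearest to miR-221 in level, the SDs ran between 0.14 and 0.64 with a median of 0.33, and none was smaller than that of miR-221. Among the 20 nearest to miR-222 the median was 0.34, and 6 had a smaller SD. The SDs of miR-221* and miR-222* were 0.50 and 0.26. Given as the CV of CPM over all 12 libraries, the values were 13.6% for miR-221, 24.1% for miR-222, 31.4% for miR-221* and 17.8% for miR-222*.

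The replicate numbers divided the libraries into sets that differed across the whole table. Libraries numbered 4 to 6 and those numbered 1 to 3 lay on opposite sides of the first principal component of log2 CPM (46.6% of the variance), except that cKO 2 and Control 3 lay nearer to numbers 4 to 6. What the numbers mark is not given in the labels, and the comparison was taken up because this split had been seen in these data. The p-values between the sets come from the same counts that showed the split, so they are descriptive. With group as a covariate, 220 of 494 miRNAs (44.5%) passed edgeR's test between the sets at an adjusted p of 0.05, 94 higher in numbers 4 to 6 (19%) and 126 lower (25.5%).

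miR-222 was lower in numbers 4 to 6 and passed that test. It had 1696 CPM in the lowest of the 6 libraries numbered 4 to 6, a median of 2144 and 2710 in the highest, against 1893, 3068 and 3378 CPM in those numbered 1 to 3. The sets overlapped because cKO 2 and cKO 3, at 1893 and 2398 CPM, lay within the range of numbers 4 to 6. The log2 fold change was -0.42 (SE 0.13, edgeR adjusted p = 0.0194), with a background of 25.5% of miRNAs called in this direction. It did not pass when levels were scaled by the miRNA total with no factor, at -0.30 (edgeR adjusted p = 0.065). Within cKO libraries alone the log2 fold change was -0.46 (edgeR adjusted p = 0.189), and within Control libraries alone -0.36 (edgeR adjusted p = 0.159). Without cKO 2 and Control 3, an alternative chosen after seeing the data, it was -0.54 (edgeR adjusted p = 0.0019). This also leaves out the lowest miR-222 library of numbers 1 to 3, so that p is not read as a test either.

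miR-221 did not pass. It had 1542, 1829 and 2069 CPM (lowest, median, highest) in numbers 4 to 6, against 1703, 1947 and 2434 CPM in numbers 1 to 3, a log2 fold change of -0.14 (SE 0.087, edgeR adjusted p = 0.21). The star arms did not pass either, at -0.03 (SE 0.25, edgeR adjusted p = 0.93) for miR-221* and -0.17 (SE 0.16, edgeR adjusted p = 0.40) for miR-222*. That miR-222 passed and miR-221 did not does not show that they differed. The log2 ratio of miR-221 to miR-222 averaged -0.23 ± 0.13 in numbers 4 to 6 and -0.50 ± 0.24 in numbers 1 to 3 (SD, n = 6 each), a difference of 0.27. Its exact permutation p was 0.05 over 400 assignments within groups (two-sided; smallest possible 0.005) and 0.2 after adjustment over 4 ratios, so this difference did not pass.

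Both guides were lower in cKO within each set of numbers, as a description. Among libraries numbered 4 to 6, miR-221 averaged 1639 ± 92.6 CPM in cKO and 1990 ± 71.3 CPM in Control libraries (SD, n = 3 each), and among those numbered 1 to 3 it averaged 1761 ± 79.0 and 2238 ± 195 CPM in cKO and Control libraries. The differences of mean log2 CPM were -0.28 and -0.34, cKO minus Control. For miR-222 the means among numbers 4 to 6 were 1864 ± 160 CPM in cKO and 2429 ± 244 CPM in Control libraries, and among numbers 1 to 3 they were 2556 ± 755 and 3171 ± 241 CPM in cKO and Control libraries, with differences of -0.38 and -0.35. miR-221* went opposite ways, by 0.35 among numbers 4 to 6 and by -0.83 among numbers 1 to 3. miR-222* had differences of 0.07 and -0.10.

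**Figure D3:**
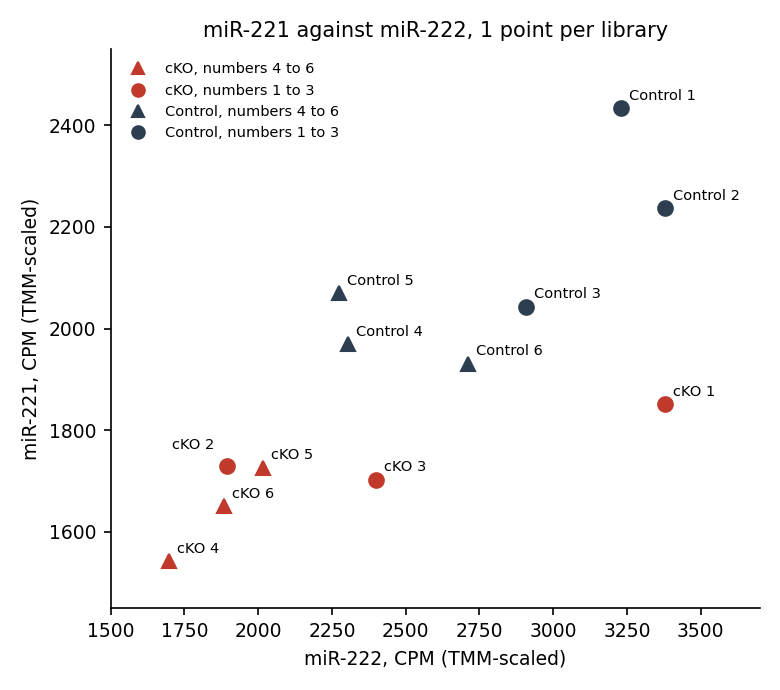
miR-221 against miR-222, both in TMM-scaled CPM on linear axes that do not start at 0, 1 labelled point per library. cKO libraries lie between 1542 and 1851 CPM of miR-221, and 4 of them also lie left of every Control library on the miR-222 axis, with cKO 3 and cKO 1 in the range that Control libraries cover.

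Within the 4 cells of group and set, the guides moved together only weakly. The deviations of log2 CPM from the mean of each cell had a Pearson r of 0.45 (exact permutation within cells, two-sided p = 0.114) and a Spearman rho of 0.55 (exact permutation p = 0.110) over 12 libraries and 1296 assignments. These were the only relation between members tested, so neither p was adjusted. Leaving out Control 1 and Control 3, whose deviations of miR-221 lay farthest from the median deviation, gave an r of 0.50. Within numbers 4 to 6 r was 0.26 and within numbers 1 to 3 it was 0.52 (n = 6 each). Without the correction for sets, r was 0.71, which includes the difference between sets. Among 205 miRNAs with a mean of at least 100 CPM, miR-222 ranked 46 in likeness to miR-221, and miR-221 ranked 54 in likeness to miR-222.

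Other miRNAs tracked each guide more closely, given as Pearson r of the same deviations over 12 libraries that share depth and scaling. On the first principal component cKO 2 (0.41) and Control 3 (0.98) lay apart from the other libraries of their cells (-9.02 to -8.30). The deviations therefore still hold part of that component, and how far these r values rest on it was not tested. For miR-222 the closest of 204 other miRNAs were miR-744 (0.97), miR-676* (0.94) and miR-320 (0.92). In numbers 4 to 6 against 1 to 3 these had log2 fold changes of -0.71, -0.39 and -0.74. With group means alone removed their r values were 0.98, 0.96 and 0.94, and they kept these places. For miR-221 the closest were miR-204 (0.89), miR-331-3p (0.82) and miR-298 (0.79). In numbers 4 to 6 against 1 to 3 these had log2 fold changes of -0.80, 0.19 and 0.14. Of these 3, miR-204 alone kept its place without the correction for sets, with an r of 0.94. There miR-331-3p had an r of 0.41 and miR-298 of 0.33. With RLE factors miR-331-3p came first (0.84) and miR-204 second (0.83), and miR-298 was at 0.62. miR-204, which is abundant in the choroid plexus, averaged 4472 ± 1648 CPM in cKO and 4081 ± 1869 CPM in Control libraries (SD, n = 6 each), and the log2 fold change was 0.13 (SE 0.29).

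Both hairpins gave mostly guide reads, and miR-222 more exclusively so. The star strand held 2.37% of the reads of both miR-221 arms in the lowest cKO library, a median of 5.15% and 6.76% in the highest, against 2.70, 4.51 and 5.65% in Control libraries. For miR-222 the star strand held 0.711, 1.09 and 1.38% in cKO libraries, against 0.538, 0.885 and 1.03% in Control libraries. In every library the star share of miR-221 lay above that of miR-222. The lowest and highest miR-221 values were those of cKO 1 at 2.37% (95% exact binomial interval 1.94 to 2.86%) and cKO 6 at 6.76% (6.39 to 7.15%). These intervals cover counting error only, since PCR copies were not marked by molecular identifiers.

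Tested within libraries over both groups, every one of these ratios departed from equality in 12 of 12 libraries. miR-221* was rarer than miR-221 by a mean log2 of -4.43 ± 0.48 (SD, n = 12), or 21.6-fold. The exact sign-flip permutation p was 0.000488, two-sided, which is the smallest that 12 libraries allow and remained 0.000488 after adjustment over 4 ratios. miR-222* was rarer than miR-222 by a mean log2 of -6.71 ± 0.36, or 104.9-fold, with the same exact p. A star is named as the rarer strand, so the direction of both ratios came with the naming. Their p-values are therefore no support for it, and the sizes are a description. The star to guide ratio was 4.86-fold higher for miR-221 than for miR-222 (mean log2 2.28 ± 0.45, same exact p).

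miR-221 stood below miR-222 by a mean log2 of -0.37 ± 0.23 over 12 libraries, a ratio of 0.775, again with an exact sign-flip p of 0.000488. The ratio ran between 0.548 in cKO 1 and 0.914 in cKO 2. Since both guides are 23 bases long, these read levels need no correction for length. This ratio and the arm ratios are ratios of reads, and whether the libraries captured each sequence equally well was not tested. Between groups the log2 ratios are a description: that of miR-221 to miR-222 averaged -0.34 ± 0.29 in cKO and -0.39 ± 0.18 in Control libraries. The star to guide ratio averaged -4.40 ± 0.58 in cKO and -4.47 ± 0.42 in Control libraries for miR-221, and -6.54 ± 0.32 and -6.89 ± 0.33 for miR-222 (SD, n = 6 each). Between numbers 4 to 6 and 1 to 3 the star to guide ratios differed by 0.12 for miR-221 (exact permutation p = 0.715, adjusted 0.715) and by 0.25 for miR-222 (exact permutation p = 0.24, adjusted 0.48).

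**Figure D4:**
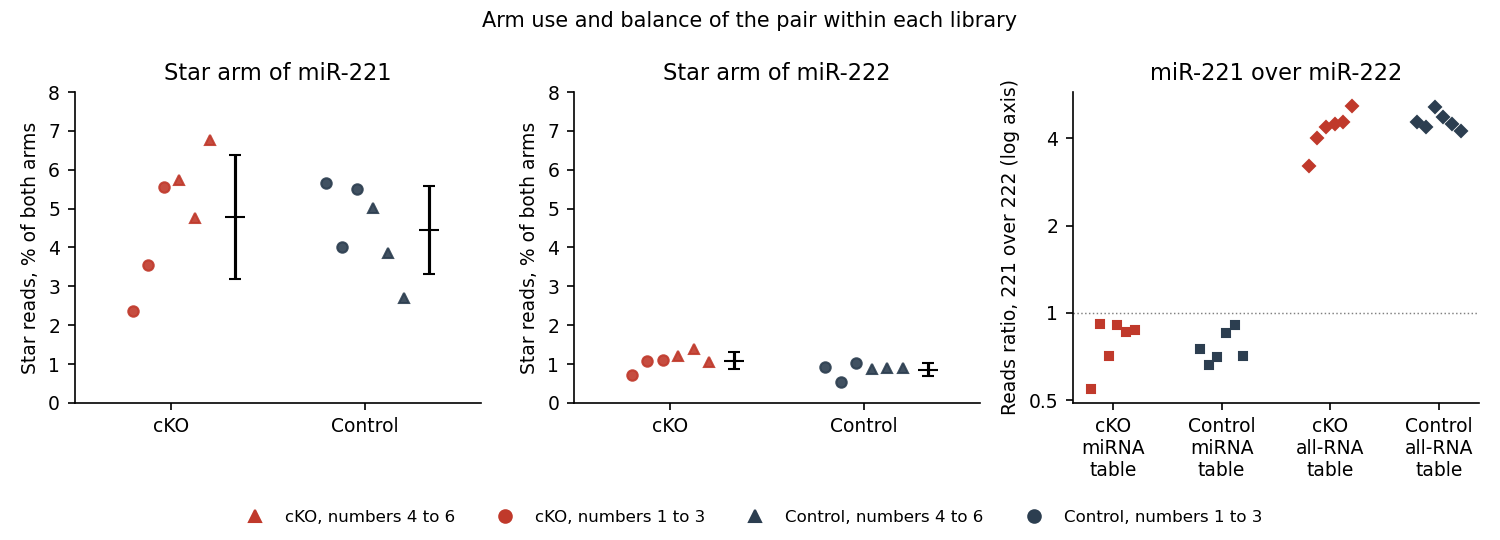
Star reads as a percentage of the reads of both arms for miR-221 and miR-222 (linear axes from 0; bars, mean ± SD, n = 6), and reads of miR-221 over reads of miR-222 on a log axis in the miRNA table (squares) and in the table of all RNAs (diamonds). The ratio lies between 0.548 and 0.914 in the miRNA table and between 3.21 and 5.16 in the table of all RNAs.

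The hairpins have rows of their own in the table of all RNAs, whose columns name the group but no single library. There Mir221 had 829, 1007 and 1140 CPM (lowest, median, highest) in cKO libraries, against 1209, 1267 and 1368 CPM in Control libraries, and the groups did not overlap. The means were 991 ± 104 CPM in cKO and 1277 ± 66.6 CPM in Control libraries (SD, n = 6 each), which the fit put at a log2 fold change of -0.37 (SE 0.13). Of 1846 tested rows, 1 (0.0542%) had every cKO library below every Control library, and it was Mir221. This contrast picked the cluster through miR-221, which is made from this hairpin, so the separation is no separate support. As background only, over tested rows with the hairpin rows included, DESeq2 called 10 of 1810 in this contrast (0.552%) and edgeR called 0 of 1846 (0%). Mir222 had 208, 226 and 258.3 CPM in cKO libraries, against 255.9, 283 and 296 CPM in Control libraries, a log2 fold change of -0.26 (SE 0.13). Its groups overlapped by the narrow margin between 255.9 and 258.3 CPM. These are the same libraries counted in another way, so they are no second sample of mice.

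The order of the pair was opposite in that table. Mir221 stood above Mir222 in 12 of 12 libraries, by a ratio of 3.21 to 5.16 in cKO libraries and of 4.24 to 5.11 in Control libraries. The geometric mean was 4.41 (exact sign-flip permutation p = 0.000488, two-sided), and dividing by hairpin length was not done. Set against the reads of both arms in the miRNA table, the Mir221 row held 23.8% as many reads in cKO and 23.5% in Control libraries. The Mir222 row held 4.59% and 4.10%, again cKO before Control. The counting rule for reads with several matching transcripts, and which reads were left to the hairpin rows, are not given in the sources used here. The balance of the pair therefore depends on which table is read.

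The seed site of the pair in an mRNA is the reverse complement of the seed, ATGTAGC, searched on the transcript strand only. In the longest annotated 3′ UTR of each gene in GENCODE M21 it stood in 13 of 23 listed targets (56.5%), against 1987 of 21020 genes with a 3′ UTR (9.45%). The listed targets are published ones and have longer 3′ UTRs, with a median of 2318 bases against 961 bases. Per kilobase the sites numbered 0.242 in the targets and 0.0738 in all genes. A match is a description of the letters and not evidence of repression here.

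The sites of Cdkn1b, Kit and the measured targets Bcl2l11 and Zeb2 are shown as the places where either guide could pair. Each line gives 25 bases of the 3′ UTR, 5′ to 3′ on the transcript, with the seed match in capitals.
Cdkn1b: ctctaaaagcattggATGTAGCatt
Kit, first site: aatgatgggagatatATGTAGCaag
Kit, second site: tttgtaaatattgaaATGTAGCaat
Bcl2l11, first site: tccatgcttcttgggATGTAGCcct
Bcl2l11, second site: gtcagaacccagcgtATGTAGCatt
Zeb2: catgctcgaataaaaATGTAGCcaa
On GRCm38 these windows lie at chr6:134924416-134924440 for Cdkn1b, chr5:75654977-75655001 and chr5:75656508-75656532 for Kit, and chr2:128159442-128159466 and chr2:128162351-128162375 for Bcl2l11, all on the plus strand, and at chr2:44987126-44987150 on the minus strand for Zeb2. Foxo3 had no such match in this 3′ UTR.

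Fragments of target mRNAs in these libraries showed no called change. The table of all RNAs holds short reads of mRNAs rather than whole transcripts, at 1119938 to 4464600 reads per cKO library and 1285831 to 3349866 per Control library. All 23 targets had a row, 7 rows passed the filter on low counts, and edgeR called none between cKO and Control, where it called none of all 1846 rows. At an unadjusted p under 0.05 there were none among the 7 and 81 among all rows, and none of the 10 rows called by DESeq2 was a target. The fitted change was upward for 5 and downward for 2 of the 7, with a median of 0.40 against -0.02 over all rows.

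The measured targets spread widely between libraries. The tested row of Bcl2l11, which promotes cell death, had 2 to 133 reads in cKO libraries (median 33.5) and 2 to 103 in Control libraries (median 55), a log2 fold change of -0.50 (SE 0.83). With the rows of the gene summed its sign turned, to 0.11 (SE 0.32), since an untested row held 181 reads over cKO and 23 over Control libraries. The transcription factor Foxo3 had 15 to 37 reads in cKO (median 28.5) and 6 to 35 in Control libraries (median 18), a log2 fold change of 0.53 (SE 0.34). The ranges of the groups overlapped for both. Zeb2, a repressor of epithelial genes, had 9 to 131 reads in cKO (median 19.5) and 11 to 25 in Control libraries (median 15.5), a log2 fold change of 0.40 (SE 0.55). The tested row of Kit had 6 to 48 reads in cKO (median 11) and 5 to 20 in Control libraries (median 7.5), a log2 fold change of 0.53 (SE 0.38). With the rows summed this turned to -0.28 (SE 0.43), an untested row holding 19 reads over cKO and 66 over Control libraries. The edgeR adjusted p was 0.999 for each of these 4 rows, and with standard errors of 0.34 to 0.83 changes of the size seen for the guides were not detectable in these rows. Cdkn1b was too sparse to be tested, with 19 reads over cKO and 12 over Control libraries. Gja1, a gap junction gene chosen here after its values were seen, had 1 to 7 reads in cKO libraries (median 4) and 1 to 1666 in Control libraries (median 1.5), so its 23 and 2897 reads in all, cKO and Control, differ through few libraries.

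Regulators and machinery gave no call either. Of 8 genes of the AP-1 and NF-kB factors that have been linked to transcription of the cluster, 2 were tested and none was called. Fos had 8 to 53 reads in cKO (median 45) and 7 to 51 in Control libraries (median 26), a log2 fold change of 0.20 (SE 0.33), and Jund had a log2 fold change of -0.30 (SE 0.30). Of the machinery genes, 14 had rows, 4 rows were tested and none was called. Dgcr8, the partner of Drosha, had 31 to 100 reads in cKO (median 57.5) and 38 to 51 in Control libraries (median 49), a log2 fold change of -0.05 (SE 0.30). Tnrc6c, which links Argonaute to mRNA decay, had a log2 fold change of 0.00 (SE 1.01). The edgeR adjusted p was 0.999 for each.

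Markers of cells that could carry the pair did not pass the test between cKO and Control, and their part in the levels of the guides was not tested. Over all 494 tested miRNAs, 251 were fitted lower and 243 higher, which is the background for the counts below. Vascular miRNAs (miR-126, miR-143 and miR-145) summed to 16103 to 23119 CPM in cKO and 13792 to 22083 CPM in Control libraries, with 4 of 6 fitted higher and a median log2 fold change of 0.12. Red blood cell miRNAs were fitted higher in 4 of 4 (median 0.30), with 6029 to 18183 CPM in cKO and 3655 to 17907 CPM in Control libraries. The epithelial and choroid plexus list had 3 of 5 lower (median -0.29), with 3142 to 7598 CPM in cKO and 2793 to 7176 CPM in Control libraries. Oligodendrocyte miRNAs had 4 of 5 lower (median -0.24; 2571 to 4052 CPM in cKO, 2559 to 4369 CPM in Control libraries), and microglial and leukocyte miRNAs had 3 of 5 lower (median -0.06; 451 to 690 CPM in cKO, 471 to 673 CPM in Control libraries). Neuronal miRNAs had 9 of 11 lower, with a median of -0.05 and sums of 55280 to 62937 CPM in cKO and 52962 to 73999 CPM in Control libraries. miRNAs linked to NF-kB had 5 of 7 lower with a median of -0.02, and sums of 8525 to 10078 CPM in cKO and 7805 to 9770 CPM in Control libraries.

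The 2 most abundant members of each list were as follows. miR-126-5p, made in endothelium, averaged 9541 ± 1711 CPM in cKO libraries (log2 fold change 0.11, SE 0.18), and miR-143, made in smooth muscle, 9322 ± 1918 CPM (0.17, SE 0.19). miR-128 had a log2 fold change of -0.23 (SE 0.13) and miR-9 of -0.03 (SE 0.17). miR-486 and miR-451, of red blood cells, had 0.16 (SE 0.38) and 0.44 (SE 0.17). miR-338-3p and miR-219-3p, of oligodendrocytes, had -0.24 (SE 0.19) and -0.27 (SE 0.16), and miR-146a and miR-142-5p, of immune cells, had -0.06 (SE 0.15) and -0.07 (SE 0.30). miR-132 and miR-21 had 0.22 (SE 0.14) and 0.00 (SE 0.24), and miR-429, of epithelia, had -0.29 (SE 0.47). The edgeR adjusted p was 0.997 for each.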

How the data were processed

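The authors deposited raw read counts per miRNA and per transcript, per the file headers and the whole-number values. Base calling used CASAVA, per the submitters' processing notes; the aligner, build and annotation are not given in the sources used here. Per the labels' protocols, TRI Reagent was used for RNA extraction, and Illumina kits for small RNA with a gel cut for the libraries. A row with no name was left out of the miRNA table. The columns of the table of all RNAs name a group only; its rows were matched to symbols for 26081 of 35230 by RefSeq accession. Counts were analysed with edgeR 4.0.16 in R 4.3.3 (filterByExpr, TMM, quasi-likelihood, two-sided, Benjamini-Hochberg over all tested rows, threshold 0.05); deviations used log2 CPM with a prior count of 2. The script was tested on simulated data. The members, the lists and the comparison of replicate numbers were chosen with earlier results of these data known. The genes named are the 4 members and their hairpins, seed sharers, the 3 miRNAs closest to each guide, the 2 most abundant members of each miRNA list, the 5 most abundant tested targets, 2 regulators, 2 machinery genes, Kat2a and Kat2b; 1 gene that this rule takes is not reported here. Alternatives were RLE factors, library totals, DESeq2 1.42.0, other filters (none, or 10 counts in 6 libraries), the replicate number as a block, the set as a covariate, single sets or groups, and each library left out. Hairpin and mature sequences came from RefSeq and target sites from GENCODE M21; the coordinates are those of GRCm38, not of the authors' files.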

Additional observations from a re-analysis of the deposited data

Results flagged for a closer look

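In Control libraries the star share of miR-222 had a low value far from the rest: Control 2 stood at 0.538%, and the next library at 0.877%, a gap of 0.69 of the group's range. Among rows of single genes in the table of all RNAs, Zeb2 had a high library in each group, at 34.1 CPM in cKO (next 9.21, a gap of 0.885 of the range) and at 21.1 CPM in Control libraries (next 9.92, 0.681). Tnrc6c likewise had a library at 43.5 CPM in cKO (next 7.51, 0.863) and at 48.7 CPM in Control (next 6.63, 0.895). A Kat2a row had a Control library at 5.90 CPM, with the next at 1.77 (0.701). Of 82 groups examined in this way 6 stood out, where a rate of 1 in 20 gives about 4.1. That figure takes the groups as independent and not skewed. Some rows were sparse and some quantities share counts, so it is only a rough guide. No cause was tested.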

How the results depend on the processing

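The log2 fold changes of miR-221 and miR-222 between cKO and Control kept their sign in every alternative run. These runs reuse the counts of the contrast that picked the cluster, so this is no support for a difference. With any library left out, miR-221 lay between -0.36 and -0.27 and miR-222 between -0.50 and -0.28. In the same runs miR-221* lay between -0.36 and -0.09 and miR-222* between -0.11 and 0.046, turning sign. The log2 fold change of miR-221* was 0.32 in numbers 4 to 6 alone and -0.76 in numbers 1 to 3 alone, and that of miR-222* 0.085 in numbers 4 to 6 alone. miRNAs called between cKO and Control numbered 1, but 2 with DESeq2 and 0 with library totals (of the miRNA table or with other small RNAs), with either set of numbers alone, without cKO 2 and Control 3 (chosen after seeing the data), with any library left out, and with the replicate number as a block. Same-numbered libraries had correlations of deviations of 0.41, -0.15, 0.13, 0.67, 0.24 and 0.27 for numbers 1 to 6, positive in 5 of 6; since number 2 fell short, the numbers were not taken as pairs, and 2 of 12 libraries correlated best with their own number; with the block miR-221 was at -0.31 and miR-222 at -0.36. Between numbers 4 to 6 and 1 to 3, miR-222 did not pass with the miRNA total (-0.30), with the total of the miRNA and misc tables (-0.27), in Control alone (-0.36) or in cKO alone (-0.46), and it passed with each library left out in turn (-0.49 to -0.30). miR-221 was at 0.0031 with the joint total. miR-221* turned to 0.075 and 0.107 with those totals and to 0.51 in cKO alone, and lay between -0.21 and 0.13 with a library left out. Calls between the sets numbered 164 to 243 with a library left out. The cause of these changes was not tested. Target, regulator and machinery rows gave 0 calls in every setting.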
